A study of Rattus norvegicus with 12 samples.

Results

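The interleukins and interleukin receptors on the array are described here. Membership went by name alone, as every probe other than a control spot whose gene name starts with Il and a digit. The family itself was picked with earlier results of these data known. It comes to 75 genes, measured by 85 of the 30367 probes. By their roles 33 genes were ligands, 36 were receptors and 6 were inhibitors, a list that holds receptor antagonists, binding proteins and decoy receptors. A single probe measured 66 of the genes, 8 had 2 probes and Il1rap had 3. Where a gene had several probes, the brightest is given unless another is named.

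Colonic tissue of 12 male Wistar rats was hybridized, 1 rat to each array of 1 colour. Group C (rats C1 to C4) held normally handled rats on placebo, Group M (M5 to M8) rats under neonatal maternal separation (NMS) on placebo, and Group D (D9 to D12) rats under NMS on VSL#3, a mixture of probiotic bacteria. Pups under NMS were taken from the dam for 180 min a day from postnatal day 2 to 14, and placebo (saline) or VSL#3 was given by gavage every day from day 3 to 60. Rats of all 3 groups underwent colorectal distension, a balloon stimulus used to measure visceral pain, so that no group shows the undistended colon. The study's methods analysed 11 arrays with D12 left out, and gave no reason. Group means and tests below therefore rest on D9 to D11, and D12 is given beside them. Rats of Groups C and M shared 1 slide and those of Group D lay on another, so that slide and group cannot be told apart in any comparison with Group D. On the shared slide Group C filled row 1 and Group M row 2, so that row and group cannot be told apart in Group M vs Group C. No source used here says whether the rats of a group came from separate litters, and the p values then measure only the spread between these rats.

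Interleukins are small secreted proteins by which immune, epithelial and stromal cells signal to each other. Most receptors are complexes of a chain that binds the ligand and a chain shared among several cytokines, such as Il2rg, Il6st, Il10rb or Il1rap, and they signal through JAK kinases and STAT factors, or, in the IL-1 and IL-17 families, through adaptor proteins that lead to NF-kB. Decoy receptors such as Il1r2 and Il13ra2 bind a ligand without passing on its usual signal. In the colon, ligands such as Il18 and Il33 come largely from epithelium and stroma, and Il10 is a central brake on intestinal inflammation.

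The probes behind the main results were 60 bases long. Those of 7 genes that turn up below are shown to say which piece of each transcript was read, with 2 for Il4ra because its probes are judged differently. They are written in lower case from 5′ to 3′, as the array files give them, and no base is singled out.
Il5: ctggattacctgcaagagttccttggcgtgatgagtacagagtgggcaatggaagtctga
Il21: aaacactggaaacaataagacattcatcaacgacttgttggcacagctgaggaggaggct
Il8ra: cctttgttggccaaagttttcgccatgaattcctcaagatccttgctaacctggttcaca
Il1r1: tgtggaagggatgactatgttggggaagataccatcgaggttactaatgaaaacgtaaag
Il1r2: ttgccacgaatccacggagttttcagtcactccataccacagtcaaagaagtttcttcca
Il13ra2: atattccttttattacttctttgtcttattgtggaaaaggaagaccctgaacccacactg
Il4ra, dimmer probe: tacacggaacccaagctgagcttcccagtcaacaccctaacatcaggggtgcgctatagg
Il4ra, brighter probe: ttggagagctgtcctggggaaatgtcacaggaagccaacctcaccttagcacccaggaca

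On the rn4 build of the array files, the Il5 probe lies at chr10:39180598-39180657 on the plus strand, the Il8ra probe at chr9:73510547-73510606 on the minus strand and the Il13ra2 probe at chrX:30506824-30506883 on the minus strand. The Il21 probe lies at chr2:123777016-123777075 on the minus strand. The Il1r1 and Il1r2 probes cover 532 and 2841 bases of the genome, at chr9:39472634-39473165 and chr9:39316654-39319494 on the plus strand, so each crosses at least 1 intron. The Il4ra probes lie on the plus strand at chr1:184630905-184630964 (dimmer) and chr1:184636781-184636840 (brighter). The exon or untranslated region under each probe was not analysed here.

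Signals are given as log2 normalized signal, the background-subtracted brightness of a probe over the 75th percentile on its array, in log2, so that 0 is the level of that percentile and each step of 1 is a doubling. Levels are compared between rats for the same probe and never between probes. Of the 75 genes, 39 were well above background (a mark of the scanner software) on all 11 arrays, 22 on some and 14 on none. Detection differed by role. Of the ligands 15 of 33 were well above background on all arrays and 9 on none, of the receptors 19 of 36 and 5, and of the inhibitors 5 of 6 and 0. Over all probes of the array 67% were well above background on all 11 arrays and 20.1% on none, against 50.6% and 21.2% of the member probes.

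**Figure D1:**
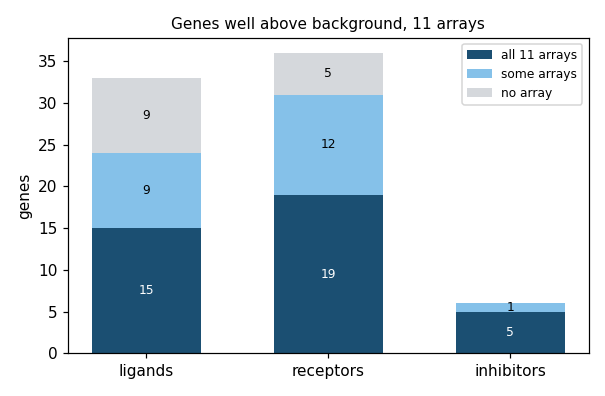
Number of member genes (vertical axis) by role, split by whether the gene was well above background on all 11 arrays, on some or on none. Of the 33 ligands 9 were not well above background on any array, against 5 of 36 receptors and 0 of 6 inhibitors.

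The 9 ligands not well above background on any of the 11 arrays were Il2, Il3, Il4, Il9, Il17f, Il22, Il25, Il1f6 and Il1f9, and the 5 receptors were Il5ra, Il18rap, Il1rl2, Il1rapl1 and Il1rapl2. They include the growth factor of T cells (Il2), the main cytokine of type 2 helper T cells (Il4) and the epithelial repair cytokine Il22. A change in such a gene could not be measured here.

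Every gene was tested in 2 ways. A call by limma needed an adjusted p no higher than 0.05, over all 30367 probes, and group means 2-fold or more apart. The criterion of the study's methods needed an analysis of variance over the 3 groups and a Tukey test, both with an unadjusted p no higher than 0.05, and the same 2-fold distance. In what follows a gene "rose" or "fell" where it passed this second criterion, and the adjusted p by limma stands beside it.

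In NMS rats on placebo against control rats (Group M vs Group C), which asks what separation in early life left in the adult colon, 10 member genes changed. The ligands Il10, Il5, Il6 and Il21, the receptors Il8rb, Il1r1 and Il6ra and the inhibitors Il13ra2 and Il1r2 rose, by a log2 difference of 1.07 (Il6ra) to 3.39 (Il13ra2). The receptor Il8ra fell, and was the sole member that limma called. Il8ra and Il10 passed whichever of the 11 rats was left out, and the other 8 did not. The 9 probes that rose and the 1 that fell are to be read against 1.37% and 0.962% of all probes of the array. In all, 11.8% of the 85 member probes passed. The tissue was whole colon, in which fewer cells of a type and less RNA per cell cannot be told apart. By limma 1 of 85 passed, against 0.168% of all probes. The p of limma before adjustment was no higher than 0.05 for 27 member probes, or 31.8%, against 22.7% of the array.

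When NMS rats on VSL#3 were set against NMS rats on placebo (Group D vs Group M), which asks what the probiotic changed, Il10, Il5 and Il13ra2 fell, as did Il4ra by its dimmer probe, and Il8ra rose. That is 4 probes lower and 1 higher, beside 1.51% and 1.14% of all probes. Limma called 0 members in this comparison, against 0.125% of all probes, while 32 member probes (37.6%) had a p no higher than 0.05 before adjustment, against 21.6% of the array. Both comparisons share the 4 rats of Group M, so the values of the members are given side by side and no overlap is drawn from them.

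Between Group D and Group C no member passed either test. Of all probes 0.00659% passed by limma, and 0.201% and 0.165% rose and fell by the criterion of the methods. Before adjustment 3 member probes, or 3.53%, had a limma p no higher than 0.05, against 5.98% of the array. They were Il22 (−0.55 on the log2 scale, at background on every array), Il20rb (−0.45) and Il22ra1 (−0.75). With 3 rats in Group D, that no gene passed does not show that the groups were alike.

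**Figure D2:**
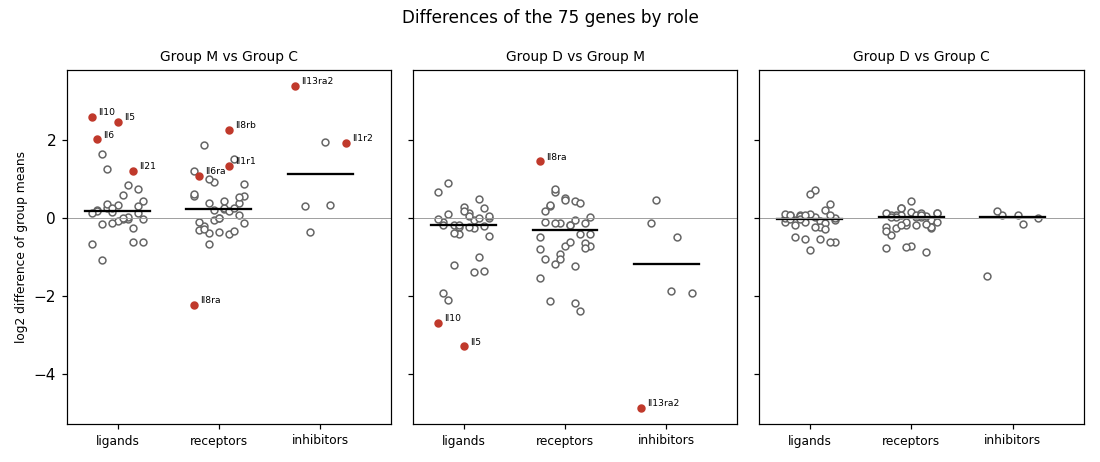
Difference of group means in log2 (vertical axis) for each of the 75 genes by role, in the 3 comparisons. Filled red points passed the criterion of the methods and are named, and black bars are medians of the role. The point of Il4ra is its brighter probe, which did not pass. The inhibitors have the highest median in Group M vs Group C, 1.12, and the lowest in Group D vs Group M, −1.18.

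By role, the median log2 difference in Group M vs Group C was 0.16 over ligands, 0.23 over receptors and 1.12 over inhibitors, beside −0.01 over all probes. In Group D vs Group M it was −0.18, −0.30 and −1.18, beside 0.02. In Group D vs Group C it was −0.04, 0.02 and 0.03, beside 0. The inhibitors are only 6 genes. Of the ligands 22 of 33 were higher in Group M than in Group C, of the receptors 22 of 36 and of the inhibitors 5 of 6, whether past a test or not. These medians and counts include the 9 ligands and 5 receptors not well above background on any array. The share of all probes that were higher is not given here.

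**Figure D3:**
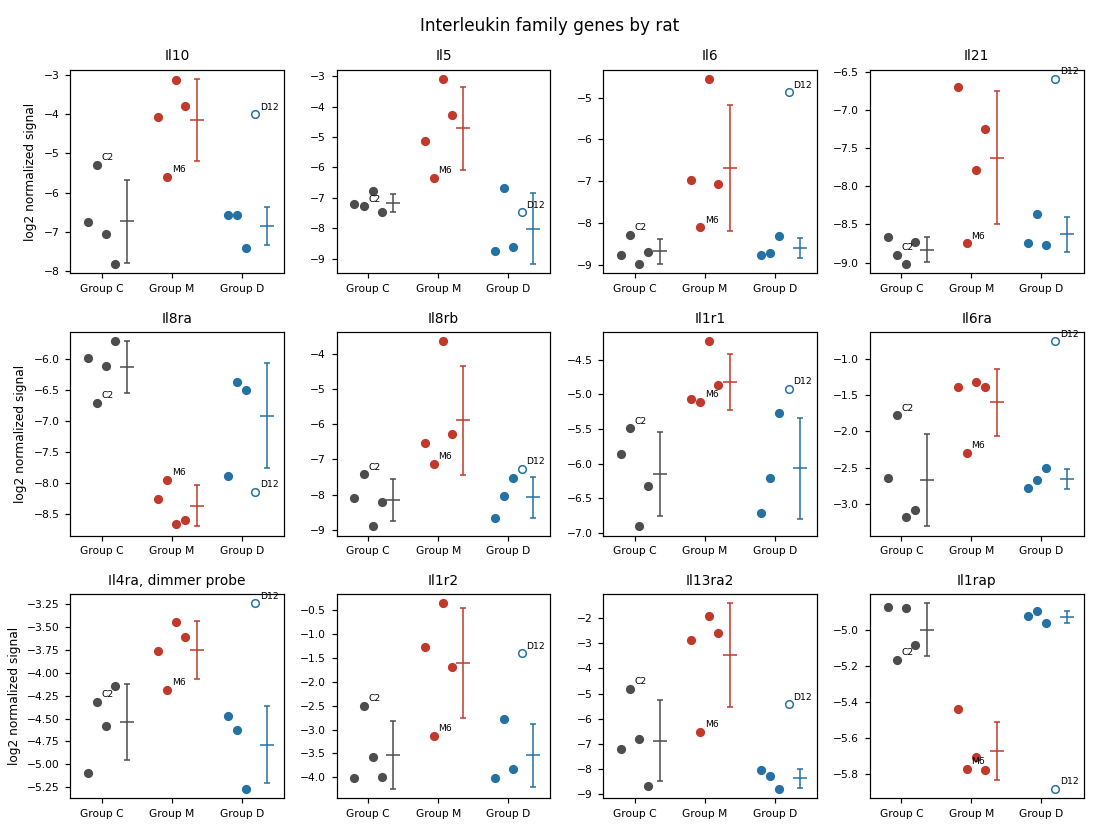
Log2 normalized signal (vertical axis) of each rat for the 11 genes past the criterion of the methods and for Il1rap. Filled points are single rats, the open circle is rat D12, and the bar beside each group is the mean ± SD without D12. Rats C2, M6 and D12 are named, and D12 lies nearer to Group M than to D9 to D11 for Il10, Il6, Il21, Il6ra and Il1rap among others.

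Among the ligands, Il10 restrains macrophages and helper T cells. Its log2 normalized signal was −6.75, −5.29, −7.07 and −7.83 in rats C1 to C4, −4.08, −5.60, −3.12 and −3.80 in M5 to M8, and −6.57, −6.57 and −7.41 in D9 to D11, with −4.01 in D12. M5, M7 and M8 lay above every control, M6 lay below C2, and all 4 lay above D9 to D11, while D12 was at their level. Il10 rose by 2.58 ± 0.60 (SE) on the log2 scale in Group M vs Group C (6-fold, adjusted p = 0.0961) and fell 6.51-fold in Group D vs Group M (SE 0.65 on the log2 scale, adjusted p = 0.0867). It was well above background in 2 of 4, 4 of 4 and 1 of 3 rats of Groups C, M and D. With D12 in the fit the second difference was −1.99, and Il10 no longer passed there, nor without D11. With a normexp background correction Il10 passed in neither comparison.

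Il5, which drives the growth and survival of eosinophils, had signals of −7.19, −7.28, −6.77 and −7.47 in Group C, −5.12, −6.33, −3.09 and −4.29 in Group M and −8.74, −6.66 and −8.62 in D9 to D11, with −7.48 in D12. The 4 rats of Group M were above all rats of the other groups, D12 included. On the log2 scale Il5 rose by 2.47 ± 0.65 in Group M (adjusted p = 0.106), with 1 of 4 controls and 4 of 4 rats of Group M well above background. That rise did not pass without C1, C2, C4 or M8, while the fall in Group D passed without each rat and with D12 added. With a normexp background correction neither the rise nor the fall of Il5 passed. Il5 was not well above background in any rat of Group D, and was at least 5.71-fold lower there than in Group M (log2 difference −3.30 ± 0.71, adjusted p = 0.0809). "At least" marks here and below the fold to the background level of the arrays, where the lower group had no rat well above background. That level was the lowest signal of any probe well above background on the array. Il5 in D10, at −6.66, lay above that level (−7.76 on its array) yet was not well above background. Such a fold is therefore not a strict lower limit. The receptor chain of Il5, Il5ra, stayed at background on every array.

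Il6, an inflammatory cytokine that acts through Il6ra and Il6st, was near background. Its signal was −8.78, −8.29, −8.99 and −8.69 in Group C, −6.98, −8.11, −4.55 and −7.07 in Group M and −8.78, −8.71 and −8.33 in D9 to D11, with −4.88 in D12. Of these rats M7 alone, and D12, were well above background. Il6 rose by at least 2.13-fold in Group M vs Group C (log2 difference 2.01 ± 0.60, adjusted p = 0.117) and differed by −1.93 ± 0.65 in Group D vs Group M, which did not pass (adjusted p = 0.14). The rise passed without M6 or M7, but not without any of the other rats, nor with D12 in the fit or under quantile normalization.

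Il21, a product of follicular helper T cells that helps B cells mature, was at −8.67, −8.90, −9.02 and −8.73 in Group C, at −6.71, −8.75, −7.79 and −7.25 in Group M and at −8.75, −8.37 and −8.77 in D9 to D11, with −6.59 in D12. It was well above background in 1 of 4 rats of Group M and in D12, and in no rat of Group C or of D9 to D11. The rise in Group M was at least 1.11-fold (log2 difference 1.21 ± 0.35, adjusted p = 0.115), less than the fitted change. Rat M6 stayed with the controls. The rise passed without M6, but not without any of the other rats, nor with D12 in the fit.

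The other ligands did not pass. Il1b, the main inflammatory member of its family, had a mean of −1.93 in Group C, −0.67 in Group M and −1.89 in Group D, with M7 at 1.18 above all other rats (difference 1.26 ± 0.55 in Group M vs Group C, adjusted p = 0.206). Il1a had a difference of 0.01 by its brighter probe and of 0.53 by its dimmer one. Il18, an epithelial cytokine, averaged 2.67, 1.99 and 2.66 in Groups C, M and D (difference −0.68 ± 0.21 in Group M vs Group C, adjusted p = 0.119), under the 2-fold threshold. Il34, a ligand of the receptor Csf1r on macrophages, had −1.09 ± 0.35 (2.12-fold, adjusted p = 0.126) but missed the Tukey test. Il17d had −0.62 ± 0.16 (adjusted p = 0.102). Il34 and Il17d were singled out after their values were seen.

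The alarmin Il33 averaged 0.91 ± 0.38 (SD, n = 4) in Group C, 0.91 ± 0.43 (SD, n = 4) in Group M and 0.68 ± 0.26 (SD, n = 3) in Group D. The subunits Il12a and Il23a had differences of 0.25 and 0.13 in Group M vs Group C, and Il12b, the chain that both share, −0.62. Il7 and Il15, which keep lymphocytes alive, had −0.27 and −0.17, and Il11, a cytokine of stromal cells, −0.03. None of these passed a test.

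Among the receptors, Il8ra and Il8rb went opposite ways. They are Cxcr1 and Cxcr2 in the current annotation, chemokine receptors of neutrophils. Il8ra had signals of −5.98, −6.70, −6.12 and −5.72 in Group C, −8.26, −7.94, −8.66 and −8.58 in Group M and −7.89, −6.37 and −6.49 in D9 to D11, with −8.14 in D12. Every rat of Group M lay below every control, and none was well above background, against 3 of 4 controls. Il8ra stood at least 2.98-fold lower in Group M than in Group C (log2 difference −2.23 ± 0.34, adjusted p = 0.0462) and at least 1.73-fold higher in D9 to D11 than in Group M (1.45 ± 0.37, adjusted p = 0.0963). With a normexp background correction its first difference shrank to −0.38 and did not pass. Limma lost the call when any of C1, C3, C4, M5, M7, M8, D10 or D11 was left out, while the criterion of the methods kept it without each of the 11 rats. The rise in Group D did not pass without D10 or D11, nor with D12 in the fit (1.14).

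Il8rb had signals of −8.09, −7.42, −8.90 and −8.20 in Group C, −6.53, −7.12, −3.64 and −6.28 in Group M and −8.68, −8.05 and −7.52 in D9 to D11, with −7.26 in D12. Only rats of Group M were well above background (3 of 4), and M7 stood far above the others. The rise in Group M was at least 3.47-fold (log2 difference 2.26 ± 0.67, adjusted p = 0.115), and in Group D vs Group M the difference was −2.19 ± 0.72, which did not pass. The rise passed without C2, M5, M6 or M7 and with D12 in the fit, but not without any of the other rats. The summed signal of 5 neutrophil markers ran from −3.29 to −1.47 in Group C, from −2.88 to 1.85 in Group M and from −2.99 to −2.68 in D9 to D11, with the highest value in M7. In Group M vs Group C S100a8 differed by 2.1 ± 0.87, S100a9 by 1.74 ± 0.87 and Csf3r by 1.74 ± 0.66. Mpo differed by 0.08 ± 0.23, and Elane was at background on every array. None of the 5 passed. The part of these markers in the Il8rb result was not tested.

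Within the IL-1 family the signalling receptor Il1r1 and the decoy Il1r2 both rose, while the shared chain Il1rap was lower. Il1r1 was at −5.87, −5.49, −6.90 and −6.33 in Group C, −5.06, −5.11, −4.23 and −4.87 in Group M and −6.71, −6.21 and −5.27 in D9 to D11, with −4.92 in D12. All rats of Group M lay above all controls and above D9 to D11. Il1r1 rose by 1.33 ± 0.37 in Group M (2.51-fold, adjusted p = 0.109), and differed by −1.25 ± 0.40 in Group D vs Group M, which did not pass. The rise did not pass without C3, C4, M7 or M8.

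Il1rap, the accessory chain that Il1r1 and Il1rl1 need to signal, had small differences and narrow groups. By its brightest probe, which reads transcript variant 2, it was at −4.87, −5.17, −4.88 and −5.08 in Group C, −5.44, −5.77, −5.71 and −5.78 in Group M and −4.93, −4.90 and −4.96 in D9 to D11, with −5.88 in D12. No rat of Group M overlapped a rat of Group C or of D9 to D11, while D12 was the lowest of all. Group M was lower than Group C by a log2 difference of −0.67 ± 0.11 (adjusted p = 0.047), and D9 to D11 were higher than Group M by 0.74 ± 0.12 (adjusted p = 0.0476). Both passed the p of limma but not its 2-fold threshold (1.59-fold and 1.67-fold). With D12 in the fit the differences were −0.67 (adjusted p = 0.197) and 0.51 (adjusted p = 0.365). The other 2 Il1rap probes, of which 1 reads variant 1, were not well above background on any array.

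Il1rl1, the receptor of Il33, had the largest difference among the receptors that did not pass in Group M vs Group C. By the probe of transcript variant 1 it averaged −5.08 in Group C, −3.21 in Group M and −5.34 in Group D (1.87 ± 0.63, adjusted p = 0.135, then −2.14 ± 0.68 in Group D vs Group M, adjusted p = 0.129). By the probe of variant 2 the differences were 1.15 ± 0.41 and −0.95 ± 0.44. Its ligand Il33 showed no difference of that size. Il18r1, which binds Il18, averaged −4.32 ± 0.26 (SD, n = 4) in the controls, against −4.39 ± 0.11 (SD, n = 4) in Group M.

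Il6ra, the chain that binds Il6, was at −2.64, −1.78, −3.18 and −3.09 in Group C, −1.40, −2.29, −1.33 and −1.39 in Group M and −2.79, −2.67 and −2.51 in D9 to D11, with −0.76 in D12. It was well above background on all arrays. M6 was the low rat of its group and lay below C2, and D12 was the highest of all. Il6ra rose by 1.07 ± 0.31 in Group M (2.10-fold, adjusted p = 0.114), and had −1.05 ± 0.34 in Group D vs Group M, which did not pass. The rise passed without C2 or M6, but not without any of the other rats, nor with D12 in the fit. The shared signalling chain Il6st differed by 0.25 ± 0.13 and −0.42 ± 0.14. Il11ra1, which also signals through Il6st, went the other way, with −0.40 ± 0.16 and 0.66 ± 0.18, both under 2-fold.

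Il4ra, the chain of the receptors for Il4 and Il13, fell in Group D vs Group M by its dimmer probe alone. That probe read −5.09, −4.32, −4.59 and −4.15 in Group C, −3.76, −4.19, −3.45 and −3.61 in Group M and −4.48, −4.62 and −5.26 in D9 to D11, with −3.24 in D12. Group M lay above D9 to D11 without overlap (−1.03 ± 0.27, adjusted p = 0.0988). The brighter probe had the same direction, at −0.77 ± 0.22 (adjusted p = 0.109), under 2-fold. With D12 in the fit the dimmer probe had −0.65 and did not pass, nor did it without M7, M8 or D11. It also failed under quantile normalization, a median shift, the authors' matrix and normexp, and with the replicate number as a block. The partner chain Il13ra1 had −0.22 between Groups M and C and 0.29 between Groups D and M.

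Of the other receptors Il2rb, a chain for Il2 and Il15, was higher in all rats of Group M than in all controls (0.55 ± 0.14, adjusted p = 0.0999), under 2-fold, and was singled out after its values were seen. Il10rb, the chain shared by Il10 and Il22, had −0.41 ± 0.15 and 0.43 ± 0.16 in the 2 comparisons with Group M, and Il10ra, which binds Il10, 0.57 and −0.82. Il17ra had 0.08 and −0.13, and Il7r, the receptor of Il7, 0.93 ± 0.51 and −1.05 ± 0.55. Il2rg, the chain common to the receptors of Il2, Il4, Il7, Il15 and Il21, had 0.44 ± 0.22 and −0.62 ± 0.24. None passed.

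Among the inhibitors Il13ra2, the decoy for Il13, had the largest difference of the 75 genes in both comparisons with Group M. Its signal was −7.20, −4.81, −6.79 and −8.68 in Group C, −2.87, −6.53, −1.93 and −2.59 in Group M and −8.05, −8.26 and −8.77 in D9 to D11, with −5.42 in D12. M6 lay among the controls and C2 stood above the other controls, but all rats of Group M lay above D9 to D11. Il13ra2 rose by 3.39 ± 1.01 in Group M (adjusted p = 0.117), with 2 of 4 controls well above background. That rise passed without C2 or M6, but not without any of the other rats, nor with D12 in the fit. Il13ra2 was at least 17.3-fold lower in D9 to D11, none of them well above background, than in Group M (log2 difference −4.88 ± 1.09, adjusted p = 0.0835). Il13 itself was well above background in 0, 4 and 2 rats of the groups and did not pass.

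Il1r2, which soaks up Il1b, was at −4.02, −2.50, −3.57 and −4.00 in Group C, −1.27, −3.13, −0.35 and −1.68 in Group M and −4.01, −2.78 and −3.82 in D9 to D11, with −1.40 in D12. It was well above background on all arrays. M6 lay below C2, and the other rats of Group M lay above all controls. Il1r2 rose by 1.92 ± 0.57 in Group M (3.78-fold, adjusted p = 0.116) and had −1.93 ± 0.61 in Group D vs Group M (adjusted p = 0.129), which missed the Tukey test. The rise passed without C2, M6 or D10, but not without any of the other rats, nor with D12 in the fit. Il1rn, the antagonist of Il1r1, had a difference of similar size, 1.94 ± 0.70 and −1.88 ± 0.76, but did not pass. Il18bp, which binds Il18, had 0.32 and −0.49, and Il22ra2, the decoy for Il22, had 0.30 and −0.12.

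Rats within a group differed widely. Of the 75 genes, those 2-fold or more above the control mean (of the other controls, for a control rat) numbered 0, 13, 1 and 0 in C1 to C4, 17, 4, 23 and 20 in M5 to M8, 0, 0 and 2 in D9 to D11 and 23 in D12. Of the 9 genes that rose in Group M, M6 lay below M5, M7 and M8 in all 9 and above every control in 4. D12 lay above every control in 7 of the 9.

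**Figure D4:**
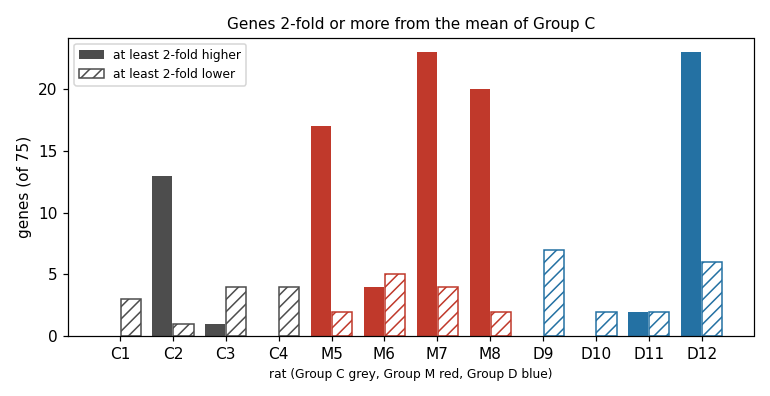
Number of the 75 genes (vertical axis) 2-fold or more higher or lower in each rat than the mean of Group C, where a control rat is set against the other 3. M6 has 4 higher genes where M5, M7 and M8 have 17 to 23, and D12 has 23 against 0 to 2 in D9 to D11.

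Without rat M6 limma called 17 member probes in Group M vs Group C, 15 higher and 2 lower, or 20% of the members against 5.86% of all probes. In Group D vs Group M it called 17, of which 16 were lower, against 6.51% of all probes. They include Il21r (−3.33 ± 0.86, adjusted p = 0.0335), Il16 (−1.86 ± 0.54, adjusted p = 0.0477), Il24 (−1.61 ± 0.45, adjusted p = 0.0428) and Il1rl1 (−2.68 ± 0.57, adjusted p = 0.0192). The 17 of the first comparison were the 10 genes above and 7 probes that the criterion of the methods did not pass with M6, those of Il1rl1 (2.42 ± 0.53), Il1rn (2.48 ± 0.64), Il1b (1.68 ± 0.50), Il1f8 (2.26 ± 0.62), Il9r (1.38 ± 0.38), Il1a by its dimmer probe (1.01 ± 0.28) and Il34 (−1.35 ± 0.32). M6 was picked for this fit after its values in these genes were seen, as the rat of Group M nearest to the controls. Leaving such a rat out tends to widen the differences, so these calls and their adjusted p values support nothing. No label sets M6 apart, so it stays in the values of the paragraphs above. With all 12 arrays, the criterion of the methods was passed by 5 members when Group M was set against Group C and 2 when Group D was set against Group M, against 1.56% and 0.948% of all probes. The 2 were Il5 and Il13ra2.

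Markers of B cells and T cells were highest in C2, M5, M7, M8 and D12. The summed signal of 4 B cell markers, all above background on some array, was −2.18, 2.44, −1.89 and −1.61 in C1 to C4, 3.04, −1.83, 2.20 and 2.53 in M5 to M8, −3.05 to −0.68 in D9 to D11 and 3.80 in D12. That of 6 T cell markers ran from −0.79 to 2.31 in Group C, from −0.72 to 2.12 in Group M and from −0.77 to 0.18 in D9 to D11, and was 3.23 in D12. None of these 10 genes passed the criterion of the methods in any comparison.

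Il21r, the receptor of Il21, was −4.05, −0.58, −3.83 and −3.45 in C1 to C4, −0.09, −4.30, −0.87 and −0.61 in M5 to M8, −4.98, −3.25 and −3.34 in D9 to D11 and 0.85 in D12, so that C2, M5, M7, M8 and D12 were the high rats, as for the B cell markers. The same 5 rats were the highest for Il27ra (−3.41 in C2, −3.84, −4.55 and −4.27 in M5, M7 and M8, −2.56 in D12, the others between −7.52 and −5.91) and for Il16, a chemoattractant of lymphocytes (0.25 to 1.62, the others between −1.89 and −0.92). Il2rg, too, was highest in these rats, at 2.27 to 3.12 against 1.40 to 1.86. None of the 4 passed a test between groups over the 11 arrays, though limma called Il21r and Il16 lower in Group D than in Group M without M6, and Il21r, Il27ra and Il16 were singled out after their values were seen. Among the genes that rose in Group M, the same 5 rats were also the highest for Il10, Il6ra, Il1r2 and Il13ra2. They were not the 5 highest for Il5, Il6, Il21, Il8rb or Il1r1. Of the genes that did not pass, Il1b, Il1rn and the brighter probe of Il1rl1 had these 5 rats highest too. The part of lymphocyte content in any member was not tested.

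**Figure D5:**
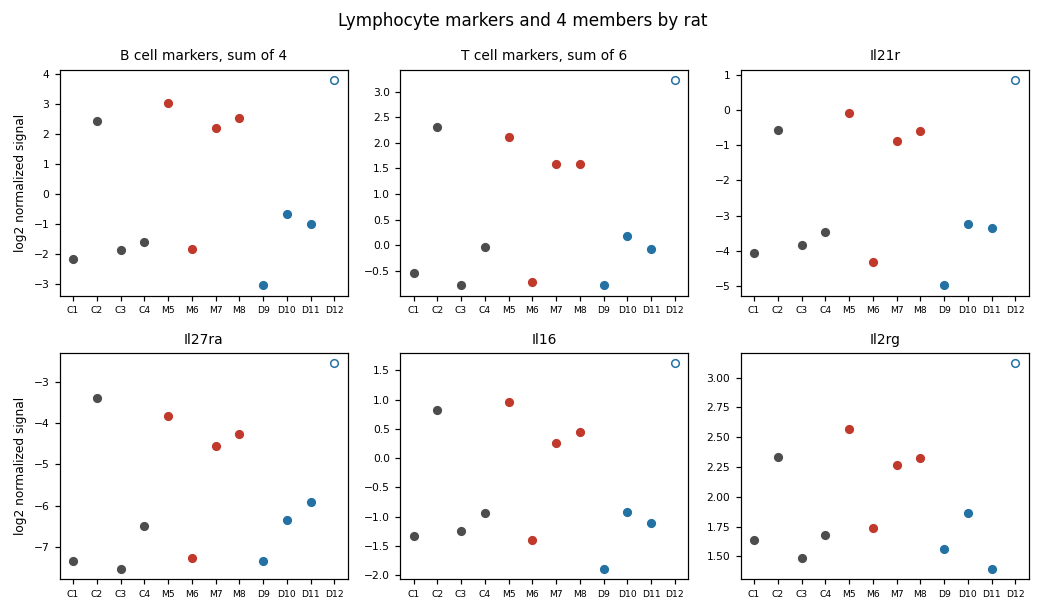
Log2 normalized signal (vertical axis) in each rat for the summed B cell and T cell markers and for Il21r, Il27ra, Il16 and Il2rg. Rats C2, M5, M7, M8 and D12 (open circle) are the 5 highest in every panel.

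Mast cell markers rose in Group M, except Kit and Tpsb2. The summed signal of 6 mast cell markers was −0.43 to −0.04 in Group C, 0.65 to 1.17 in Group M and 0.12 to 1.65 in D9 to D11 (0.18 in D12), and 4 of them rose in Group M. They were the proteases Mcpt1 (at least 10.3-fold), Mcpt2, Cpa3 and Tpsab1. Of all probes 1.37% rose. Tpsb2 had 0.78 ± 0.20, under 2-fold, and Kit, the receptor of stem cell factor, had −0.50 ± 0.19 (adjusted p = 0.161). M6, at 0.81, lay within the range of its group. Tpsab1 alone fell in Group D vs Group M (−3.26 ± 0.85, adjusted p = 0.098), and Mcpt2 alone rose in Group D vs Group C (1.58 ± 0.37, adjusted p = 0.518). The sum of 6 macrophage markers was 2.39 to 2.65 in Group C, 2.79 to 3.22 in Group M and 2.64 to 2.99 in D9 to D11, and none of the 6 passed, with differences from −0.16 (Itgam) to 0.51 (Cd163) between Groups M and C. Of these lists only Elane, a neutrophil marker, was at background on every array. The 6 epithelial and 5 smooth muscle markers were each well above background on at least 1 array, and none passed in any comparison. The part of these cells in the changes of Il5, Il10, Il13ra2 and Il1rl1 was not tested.

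Of 12 partner cytokines and receptors outside the naming rule, 1 rose when Group M was set against Group C and 2 fell when Group D was set against Group M, with median differences of 0.42 and −0.63. Osmr, which pairs with Il6st to receive oncostatin M, was the gene in both, at 1.58 ± 0.34 (adjusted p = 0.0904) and −2.32 ± 0.37 (adjusted p = 0.051). Csf2, a growth factor of myeloid cells, was at least 2.62-fold lower in the second comparison (log2 difference −2.09 ± 0.60, adjusted p = 0.112), with 3 rats of Group M well above background and none of the others in the fit. Of 24 signalling genes 1 rose and 1 fell, in both cases Socs3, the feedback inhibitor of Il6st signalling, at 1.60 ± 0.36 (adjusted p = 0.0924) and −1.72 ± 0.39 (adjusted p = 0.0835). Stat3, which Il6 and Il10 receptors activate, had 0.55 ± 0.12 and −0.61 ± 0.13, under 2-fold. Both comparisons share the rats of Group M, so nothing is drawn from Osmr or Socs3 passing in both. In Group D vs Group C no gene of these 2 lists passed. The counts of both lists are to be read against 1.37% of all probes higher in Group M vs Group C and 1.51% lower in Group D vs Group M.

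The stretch of 250 bases before the annotated start, from RefSeq on GRCr8, was matched for 58 members, of which 8 passed the criterion of the methods in some comparison. It was searched on both strands for the letters TGANTCA (AP-1), TTCNNNGAA (STAT), TTC and GAA with any 4 bases between them (STAT6), and GGGA and CC likewise with 4 between (NF-kB). These letters stood in 6.34%, 7.67%, 6.25% and 16.4% of all 33469 such stretches, and in 5, 5, 9 and 11 of the 58 members. Of the 8, Il6 alone held the NF-kB letters and Il8rb alone the STAT6 letters, and they are shown for that reason, with the matching letters in capitals. In Il6 the match is at 68 to 59 bases before the start and, on the opposite strand, overlaps a second at 67 to 58. In Il8rb it is at 195 to 186. The stretches lie at chr4:5894576-5894825 on the minus strand and chr9:83178395-83178644 on the plus strand of GRCr8.
Il6: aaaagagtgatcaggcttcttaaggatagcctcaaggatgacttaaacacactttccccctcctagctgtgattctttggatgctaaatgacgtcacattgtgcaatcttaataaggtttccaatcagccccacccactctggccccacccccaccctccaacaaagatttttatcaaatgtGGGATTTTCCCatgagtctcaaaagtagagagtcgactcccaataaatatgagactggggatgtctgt
Il8rb: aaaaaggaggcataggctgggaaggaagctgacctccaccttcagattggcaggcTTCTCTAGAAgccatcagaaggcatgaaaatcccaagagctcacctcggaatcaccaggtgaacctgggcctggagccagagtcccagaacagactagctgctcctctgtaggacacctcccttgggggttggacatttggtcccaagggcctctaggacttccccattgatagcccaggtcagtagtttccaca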

How the data were processed

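Colonic RNA of 12 rats was measured on arrays of 1 colour (Cy3). Per the file headers, the deposited intensity of each spot had been background-subtracted and corrected for trends by Agilent Feature Extraction 10.5.1.1, with no scaling between arrays. The authors' matrix of log2 values, which was quantile-like across arrays, served as an alternative.

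From the intensities, each signal was divided by the 75th percentile of its array and put in log2, control spots and spots marked as outliers were left out, and repeat spots averaged per probe. On each array 75.48% to 77.47% of spots were well above background, and 0 were saturated. The precision is limited by 3 or 4 rats a group. Current names were found by accession for 79 of 85 probes and by symbol for 6.

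Groups were compared with limma 3.58.1 (R 4.3.3), the 3 groups in one model over 11 arrays, p values adjusted by Benjamini and Hochberg's method across the 30367 probes, and by the criterion of the methods. Errors are SE of limma unless named as SD.

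Genes with values in every rat are those past the criterion of the methods or with an adjusted p by limma no higher than 0.05 whatever their fold (Il1rap), and the others come from a list of well-known interleukin genes written down for the report, besides genes named as singled out later. The members and lists were chosen with earlier results of these data known. Each marker list is given by the log2 of its summed linear signals. Scripts were tested on simulated data, and Python 3.11.15 with matplotlib 3.10.9 drew the figures.

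Replicate numbers equal the column of the array on its slide, and no source says that they pair rats. Alternatives were all 12 arrays, normexp (offset 50), quantile or median scaling, the authors' matrix, outlier spots kept, a filter on dim probes, a replicate block, array weights, 2 groups alone, adjustment of the methods' criterion, and each rat left out.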

Additional observations from a re-analysis of the deposited data

Results flagged for a closer look

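In 114 groups of 4 rats (38 probes, Group D with D12), 9 held a rat whose gap to the next rat, divided by the range of the group, was above Dixon's critical value for 4 samples. Chance flags about 1 in 20 groups. D12 was the far rat of Group D for Il6ra (0.866, at −0.76 against −2.51 in the nearest rat), Il1b (0.896), Il6 (0.885, at −4.88 against −8.33) and Il10ra (0.953, at −4.97 against −7.48), where it was high, and for Il18 (0.915, at 1.66 against 2.61) and Il1rap (0.933, at −5.88 against −4.96), where it was low. M6 was the far rat of Group M for Il6ra (0.928, low, at −2.29 against −1.40) and Il10rb (0.9, high, at 1.88). M7 was low for Il7 (0.903, at −4.46 against −4.03).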

How the results depend on the processing

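No difference of the 10 and 5 calls by the criterion of the methods changed direction under any alternative. The counts of calls did change, and the cause was not tested. In Group M vs Group C limma called 1 member, but 0 with all 12 arrays, with normexp, with the authors' matrix, or when only probes well above background throughout at least 1 group were tested (54 members). Over all probes limma called 51, and in those settings 10, 62, 28 and 76 (of 21574 tested). The criterion of the methods (10 members) gave 5 with all 12 arrays, 2 with normexp (Il1r2 and Il13ra2), 6 among these brighter probes and 0 after Benjamini-Hochberg adjustment. In Group D vs Group M limma called 0 (38 over all probes), but 1 (Il5) among the brighter probes (160 over all of them). Il5, Il10 and Il13ra2 entered that filter through Group M alone, where they were high, so their calls under it support nothing. The criterion of the methods (5) gave 2 with all 12 arrays and 1 with normexp (Il13ra2). It gave 9 with the other group left out of the fit and 0 after adjustment. Array quality weights gave 22 and 19 calls by limma, of 2106 and 2096 over all probes, with the weight of M6 the lowest (0.368) and that of M8 the highest (4.65). Quantile normalization, a median shift and outlier spots kept left every count within 1.5 times, and the median shift moved the median of all probes in Group D vs Group M to 0.11.

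With 1 rat left out, limma called 0 to 17 members in Group M vs Group C, 0 to 17 in Group D vs Group M and 0 in Group D vs Group C, and the criterion of the methods 2 to 17, 3 to 18 and 0 to 1. The high ends came without M6, except for the 1 in Group D vs Group C (Il22ra1, without D9). The criterion gave 2 in Group M vs Group C without C4 or without M8 (Il8ra and Il10), 3 without C1, 4 without C3 or D11, 5 without M5, M7, D9 or D10, and in Group D vs Group M 9 without C2 and 3 without D11. In Group M vs Group C limma called Il8ra alone without C2 or D9 and 0 without C1, C3, C4, M5, M7, M8, D10 or D11.

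With the replicate number as a block, limma called 0 and 0 members in the first 2 comparisons (1 and 1 over all probes). The criterion of the methods called 1 (Il8ra) and 1 (Il5). Rats of the same number did not deviate together (correlations of −0.61 to 0.15 over probes), and a pairing is not given by any source.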
